A study of Homo sapiens with 18 samples.

Results

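Cancer-testis antigens were followed across lymphoma cell lines given PAX5, chromatin drugs or both. The set was 10 genes given by symbol: SSX1, SSX3, MAGEA4, MAGEB1, MAGEB2, MAGEC1, MAGEC2, PRAME, BRDT and GCNA. For each gene, the probe sets annotated to that symbol alone were taken and the one with the brightest mean was kept. This gave 9 measured genes of 18417 genes tested in all. MAGEB1 had no probe set of its own and is described only through one it shares with MAGEB4. BRDT lies on chromosome 1, PRAME on chromosome 22 and the other members on chromosome X.

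RNA was hybridised to 18 arrays, 3 in each of 6 groups. Raji and Namalwa come from Burkitt lymphoma and had no treatment. L428 is a line of classical Hodgkin lymphoma. L428-PAX5 derives from it and switches on PAX5, a master regulator of B-cell identity, when given mifepristone. Cells of L428-PAX5+MAT and L428+MAT had 0.25 nM mifepristone, then 3 µM 5-aza-2′-deoxycytidine (5-aza-dC, a DNA demethylating agent) over 3 days, and 640 nM trichostatin A (TSA, an inhibitor of histone deacetylases) in the final 24 hours. L428-PAX5+M and L428+M had mifepristone alone, so all 4 groups of L428 and L428-PAX5 shared it, and treatment lasted 5 days. The medium of L428-PAX5 also held 25 mM HEPES, so that the PAX5 transgene, the derivation of the line and HEPES cannot be told apart. Without mifepristone, L428-PAX5 was not analysed here, and the 2 drugs were given only together. Titles of the L428-PAX5+MAT samples read L425-PAX5, while the cell line field, which was used here, reads L428-PAX5. Nothing in the labels tells whether arrays of a group came from separate cultures, so that p-values cover only the spread between these arrays, and this may be technical.

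Cancer-testis antigens are proteins made in germ cells of the testis and silent in most somatic tissues, where methylation of CG dinucleotides in their promoters is a known means of silencing. Tumours often make them again, and the immune system can then recognise them. SSX proteins act as transcriptional repressors and are known from their fusion with SS18 in synovial sarcoma. Type I MAGE proteins bind RING-type ubiquitin ligases. PRAME is a substrate receptor of a CUL2 ubiquitin ligase, BRDT is the testis member of the BET bromodomain proteins, and GCNA is a germ-cell nuclear protein that protects the genome from DNA-protein crosslinks.

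The labelled lines were checked against their markers. PAX5 averaged 12.79 on the log2 scale in L428-PAX5+MAT and 12.73 in L428-PAX5+M, against 7.17 in L428+MAT and 7.49 in L428+M. On the L428+M arrays it read 8.64, 7.14 and 6.70, a wider spread (SD 1.02) than in any other group. All 7 measured B-cell markers were higher in Raji and in Namalwa than in L428+M, and 7 of 9 Hodgkin markers were lower in each. CCL22, another Hodgkin marker, was higher in both, with 7.87 in Raji and 7.40 in Namalwa, against 6.51 in L428+M. Of the 6 T-cell markers, 0 passed limma in any comparison, and 0 had an unadjusted p below 0.05. Replicate arrays correlated across genes with r between 0.9628 and 0.9961, and array medians lay between 6.52 and 6.70. A level below is a log2 signal per probe set, on which 1 unit is a doubling. Since probe sets differ in brightness, levels are compared between groups and not between genes. No detection calls were used, and a change of a dim probe set is understated.

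Methylation of CG dinucleotides in promoters is a known means of silencing, and 5-aza-dC is a DNA demethylating agent. The promoter windows of the members with a single annotated start are therefore of interest beside the values. The RefSeq windows of GRCh38.p14 are 300 bases long, cover the start site and are printed 5′ to 3′ in the direction of the gene, with each CG in capitals. Of the 10 members, 9 matched a window, and SSX3 did not. SSX1 lies at chrX:48255142-48255441 (plus strand), GCNA at chrX:71578187-71578486 (plus), MAGEB2 at chrX:30215313-30215612 (plus), MAGEC1 at chrX:141903644-141903943 (plus) and MAGEC2 at chrX:142205241-142205540 (minus).
SSX1: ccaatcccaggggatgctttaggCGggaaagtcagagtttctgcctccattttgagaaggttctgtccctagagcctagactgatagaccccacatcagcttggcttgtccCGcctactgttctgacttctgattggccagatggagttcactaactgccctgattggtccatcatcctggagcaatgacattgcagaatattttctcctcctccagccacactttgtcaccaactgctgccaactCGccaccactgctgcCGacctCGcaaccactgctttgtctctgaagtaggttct
GCNA: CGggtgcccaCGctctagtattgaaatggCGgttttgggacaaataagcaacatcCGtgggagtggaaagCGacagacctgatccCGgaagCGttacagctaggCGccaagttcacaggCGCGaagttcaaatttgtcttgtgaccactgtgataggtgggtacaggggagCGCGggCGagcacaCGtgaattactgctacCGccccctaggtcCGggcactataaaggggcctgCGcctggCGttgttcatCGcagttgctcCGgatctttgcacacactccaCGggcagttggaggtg
MAGEB2: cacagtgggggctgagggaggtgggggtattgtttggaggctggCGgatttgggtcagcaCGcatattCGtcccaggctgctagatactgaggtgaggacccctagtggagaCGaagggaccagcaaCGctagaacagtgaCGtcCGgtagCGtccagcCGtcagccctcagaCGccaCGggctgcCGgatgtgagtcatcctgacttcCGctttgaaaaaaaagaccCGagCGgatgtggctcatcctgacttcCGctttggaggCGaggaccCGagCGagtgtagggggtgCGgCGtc
MAGEC1: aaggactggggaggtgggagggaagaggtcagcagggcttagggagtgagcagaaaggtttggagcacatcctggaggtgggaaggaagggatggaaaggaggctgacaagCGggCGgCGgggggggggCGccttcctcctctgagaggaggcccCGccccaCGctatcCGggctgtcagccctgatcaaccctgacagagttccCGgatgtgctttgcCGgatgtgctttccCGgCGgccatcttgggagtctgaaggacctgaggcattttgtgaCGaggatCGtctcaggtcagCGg
MAGEC2: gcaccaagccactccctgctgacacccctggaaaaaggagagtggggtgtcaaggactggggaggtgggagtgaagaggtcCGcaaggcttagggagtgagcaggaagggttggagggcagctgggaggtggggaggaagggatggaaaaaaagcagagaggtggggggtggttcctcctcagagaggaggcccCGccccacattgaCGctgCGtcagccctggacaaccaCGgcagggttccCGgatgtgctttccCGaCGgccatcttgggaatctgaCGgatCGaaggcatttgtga
GCNA and MAGEB2 each held 21 CG, MAGEC1 14, MAGEC2 10 and SSX1 5, against a median of 14 over all 35116 windows. Of all windows, 70.4% held at least as many CG as SSX1, and 39.5% at least as many as GCNA or MAGEB2. MAGEC1 and MAGEC2 were 84.7% identical over 249 aligned bases. BRDT had 2 windows, of 21 and 23 CG, while PRAME had 3, of 4, 12 and 13, MAGEA4 had 5, of 10 to 15, and MAGEB1 had 2, of 1 and 18. CCGGAA, a core bound by ETS factors that itself holds a CG, was searched on both strands. It occurred once in GCNA, once in 1 window of PRAME and in 17.2% of all windows. Forms that differ in the last base, such as CCGGAT, were not counted. CCGGAT can be read in the printed windows of GCNA, MAGEB2, MAGEC1 and MAGEC2, so the count does not show that ETS cores are absent. Methylation itself was not measured.

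The drugs were first compared within each line. In L428-PAX5, SSX1, SSX3, GCNA, BRDT, MAGEA4 and MAGEC1 rose with 5-aza-dC and TSA, by between 0.86 and 3.95 on the log2 scale. The same 6 rose in L428, by between 1.06 and 5.38. MAGEB2, PRAME and MAGEC2 passed in neither line. So 6 of 9 measured members were higher in L428-PAX5+MAT relative to L428-PAX5+M, where 14.2% of all genes tested were higher and 19.4% lower, and 6 of 9 were higher in L428+MAT than in L428+M, where 4.21% were higher and 0.635% lower. No member was lower in either. The median change of the members was 1.41 in L428-PAX5 and 2.01 in L428, against -0.04 for all genes in each line. The members were chosen with earlier results of these data known. Their counts and medians, here and below, are therefore descriptions and no independent evidence. A gene passed at a limma adjusted p below 0.05, adjusted by Benjamini-Hochberg over all genes tested.

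**Figure D1:**
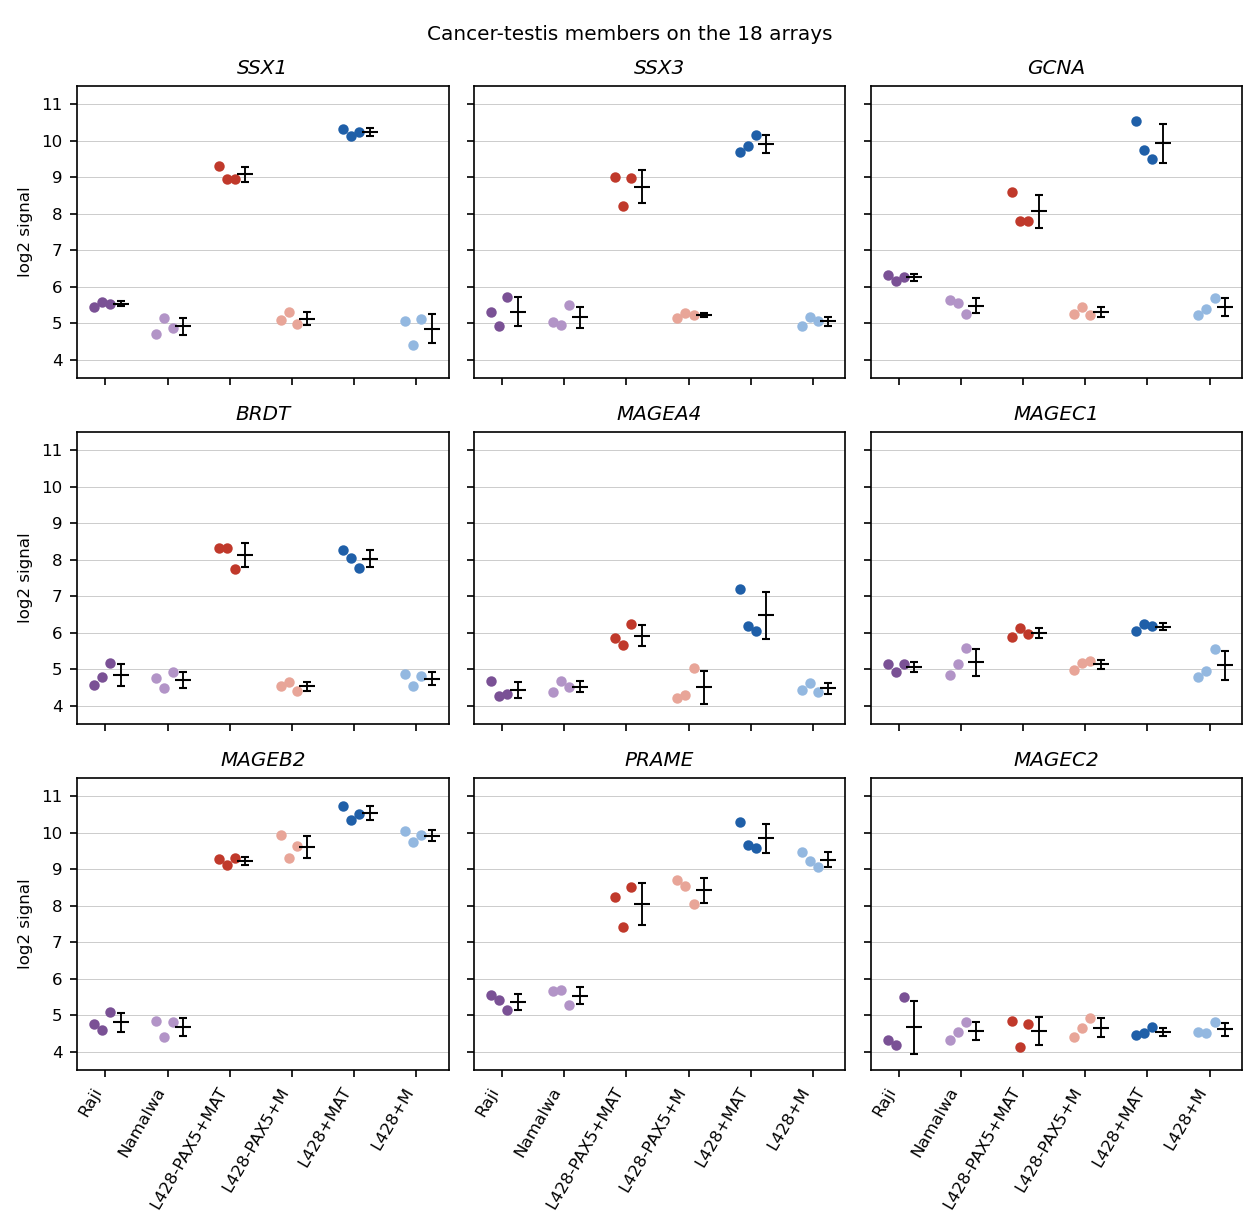
Log2 signal of each of the 9 measured genes on the 18 arrays, in 6 groups; points are arrays, and the black bar is the group mean with its SD (n = 3). SSX1, SSX3, GCNA and BRDT lay between 4.39 and 5.70 in L428-PAX5+M and L428+M and at 7.74 or more in both groups with 5-aza-dC and TSA, while MAGEB2 and PRAME lay at 7.41 or more on every L428 and L428-PAX5 array and MAGEC2 lay between 4.12 and 5.51 on every array.

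SSX1, a transcriptional repressor of the SSX family, moved furthest. Its log2 signal was 9.32, 8.95 and 8.95 on the L428-PAX5+MAT arrays, against 5.08, 5.31 and 4.98 on those of L428-PAX5+M. In L428+MAT it was 10.33, 10.13 and 10.25, against 5.06, 4.41 and 5.10 in L428+M. All drug-treated arrays lay above all others, with no overlap in either line. The change was 3.95 ± 0.18 in L428-PAX5 (log2 ± SE, n = 3 per group, 15.5-fold, limma adjusted p = 3.7e-11) and 5.38 ± 0.18 in L428 (41.7-fold, adjusted p = 9.48e-13).

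SSX3, its relative, read 9.00, 8.22 and 8.99 in L428-PAX5+MAT and 5.15, 5.28 and 5.22 in L428-PAX5+M. Its values were 9.68, 9.86 and 10.17 in L428+MAT and 4.93, 5.16 and 5.06 in L428+M. Again the groups were apart in both lines. SSX3 rose by 3.52 ± 0.22 in L428-PAX5 (limma adjusted p = 2.4e-09) and by 4.85 ± 0.22 in L428 (adjusted p = 7.24e-11).

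SSX genes are closely related in sequence and may share signal on the array. Besides their own probe sets, SSX1 and SSX3 are both listed on 4 shared ones, each annotated to 10 or 11 SSX symbols. In a fit over all 33297 probe sets, all 4 were higher with the drugs, by 4.15 to 5.11 in L428-PAX5 and by 5.20 to 5.62 in L428. That fit called 9.96% of probe sets higher in L428-PAX5 and 2.5% in L428. SSX5 and SSX7, on probe sets annotated to them alone, rose by 2.11 ± 0.24 and 2.20 ± 0.25 in L428-PAX5 and by 3.06 ± 0.24 and 2.29 ± 0.25 in L428 (limma over genes, adjusted p at most 9.41e-06). Which SSX transcripts contributed to each of these probe sets cannot be told apart here.

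**Figure D2:**
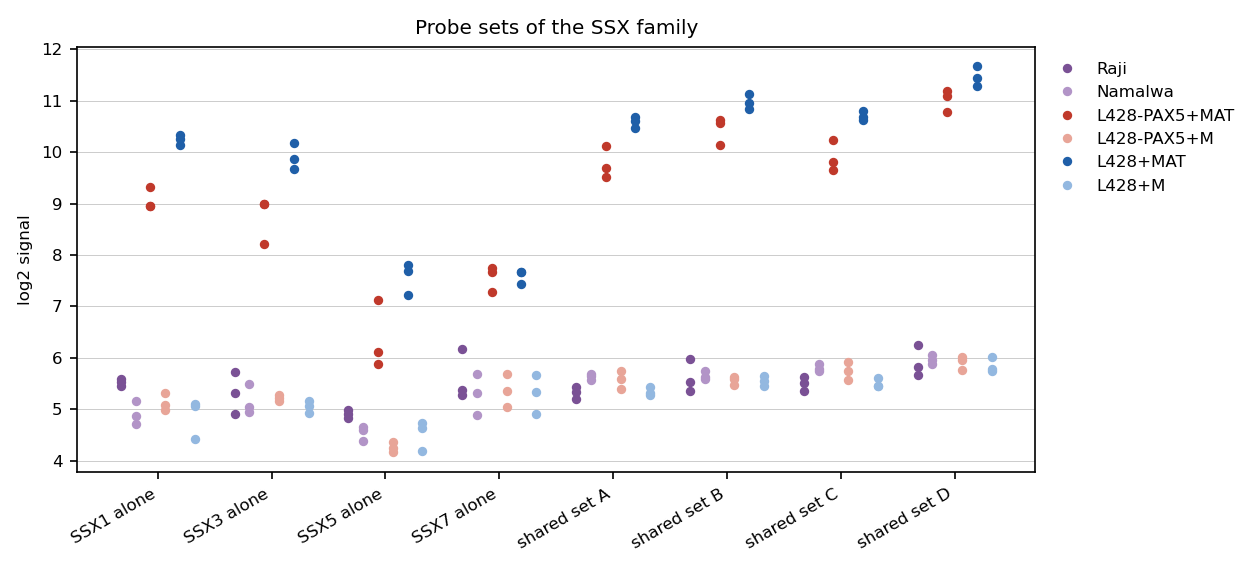
Log2 signal of 8 SSX probe sets on the 18 arrays, 4 annotated to 1 gene alone and 4 shared by 10 or 11 SSX symbols (A to D); each point is an array, coloured by group. Every array of L428-PAX5+MAT and L428+MAT lay above every array of the other 4 groups for all 8 probe sets, with the smallest gap for SSX5, between 5.87 in L428-PAX5+MAT and 4.98 in Raji.

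GCNA, the germ-cell genome protector, had 8.59, 7.80 and 7.79 in L428-PAX5+MAT, against 5.24, 5.45 and 5.21 in L428-PAX5+M. L428+MAT gave 10.53, 9.75 and 9.50, against 5.22, 5.39 and 5.70 in L428+M. Neither pair overlapped. The rise was 2.76 ± 0.24 in L428-PAX5 (6.77-fold, limma adjusted p = 1.25e-07) and 4.49 ± 0.24 in L428 (22.5-fold, adjusted p = 7.56e-10).

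BRDT, which reads acetylated histones during spermatogenesis, was measured at 8.33, 8.33 and 7.74 in L428-PAX5+MAT and at 4.55, 4.65 and 4.39 in L428-PAX5+M. The L428+MAT arrays gave 8.26, 8.05 and 7.78 and those of L428+M 4.87, 4.53 and 4.81. BRDT rose by 3.60 ± 0.19 in L428-PAX5 (12.2-fold, limma adjusted p = 2.94e-10) and by 3.29 ± 0.19 in L428 (9.8-fold, adjusted p = 3.3e-09), and in each line the groups were apart. Of its somatic BET relatives, BRD2 had -0.05 ± 0.11 in L428-PAX5 and 0.05 ± 0.11 in L428, neither passing, and BRD3 fell in L428-PAX5 (-0.63 ± 0.13, adjusted p = 0.00117) and had -0.07 ± 0.13 in L428 (adjusted p = 0.881).

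Among the MAGE members, MAGEA4 and MAGEC1 had passing but smaller changes. MAGEA4 read 5.86, 5.66 and 6.24 in L428-PAX5+MAT and 4.21, 4.29 and 5.02 in L428-PAX5+M. Its L428+MAT arrays read 7.21, 6.18 and 6.04, with replicate 1 above the other 2, and those of L428+M 4.42, 4.63 and 4.37. The groups did not overlap, and the rise was 1.41 ± 0.26 in L428-PAX5 (limma adjusted p = 0.000353) and 2.01 ± 0.26 in L428 (adjusted p = 5.59e-05). MAGEC1 had 5.87, 6.14 and 5.95 in L428-PAX5+MAT, against 4.98, 5.18 and 5.23 in L428-PAX5+M. Its values were 6.05, 6.24 and 6.18 in L428+MAT, against 4.79, 4.94 and 5.56 in L428+M. Here too all drug-treated arrays were the higher ones, by 0.86 ± 0.19 in L428-PAX5 (limma adjusted p = 0.00177) and 1.06 ± 0.19 in L428 (adjusted p = 0.00173). Apart from replicate 1 of L428+MAT for MAGEA4, all their values lay below 6.52, the lowest array median.

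MAGEC2, known as a partner of the TRIM28 ligase, stayed at the bottom of the scale. L428-PAX5+MAT had 4.83, 4.12 and 4.75, and L428-PAX5+M 4.39, 4.64 and 4.91. L428+MAT had 4.46, 4.52 and 4.68, and L428+M 4.53, 4.50 and 4.81. The arrays overlapped in both lines, and the changes of -0.08 ± 0.27 and -0.06 ± 0.27 did not pass (limma adjusted p = 0.874 in L428-PAX5 and 0.959 in L428). MAGEC1 and MAGEC2, whose promoter windows are printed above, thus gave a passing and a non-passing change under the same treatment. The difference between the 2 genes was not tested.

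MAGEB2 and PRAME were already bright in L428 without the drugs. MAGEB2 had 9.29, 9.11 and 9.30 in L428-PAX5+MAT, against 9.93, 9.32 and 9.63 in L428-PAX5+M, with the drug-treated arrays the lower ones. In L428+MAT it had 10.74, 10.35 and 10.52, against 10.06, 9.76 and 9.93 in L428+M, with the drug-treated arrays the higher ones. The change was -0.39 ± 0.18 in L428-PAX5 (limma adjusted p = 0.101, and adjusted p = 0.0149 with the replicate number as a block). With each of 6 arrays left out in turn, it ran from -0.54 to -0.24. It passed in 1 of these 6 fits, without replicate 2 of L428-PAX5+M (-0.54, limma adjusted p = 0.036). In L428 the change was 0.62 ± 0.18 (limma adjusted p = 0.0507, and adjusted p = 0.00269 with the block). There it ran from 0.52 to 0.71 with an array left out, and passed in 0 of 6 fits. PRAME read 8.23, 7.41 and 8.51 in L428-PAX5+MAT and 8.71, 8.54 and 8.05 in L428-PAX5+M, which overlapped. It read 10.31, 9.66 and 9.58 in L428+MAT and 9.48, 9.24 and 9.07 in L428+M, which did not. Its changes of -0.38 ± 0.25 in L428-PAX5 (limma adjusted p = 0.29) and 0.59 ± 0.25 in L428 (adjusted p = 0.27) missed the threshold.

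The probe set shared by MAGEB4 and MAGEB1, the only one listing MAGEB1, had 6.51, 6.33 and 6.70 in L428-PAX5+MAT and 7.50, 7.14 and 6.88 in L428-PAX5+M. L428+MAT gave 7.40, 7.26 and 7.24 and L428+M 7.45, 7.36 and 7.26. In the fit over all probe sets its change was -0.66 ± 0.19 in L428-PAX5 (limma adjusted p = 0.0202) and -0.06 ± 0.19 in L428 (adjusted p = 0.979). Relative to L428+M it was -1.24 ± 0.19 in Raji and -1.23 ± 0.19 in Namalwa (adjusted p = 0.000122 and 0.000123). Its signal cannot be assigned to MAGEB1 or MAGEB4.

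Whether the drugs acted alike in both lines was tested as the interaction, the change in L428-PAX5 minus that in L428. GCNA (-1.73 ± 0.33, limma adjusted p = 0.00184), SSX1 (-1.43 ± 0.25, adjusted p = 0.000925), SSX3 (-1.34 ± 0.31, adjusted p = 0.00682) and MAGEB2 (-1.01 ± 0.25, adjusted p = 0.00991) had a smaller change in L428-PAX5. For GCNA, SSX1 and SSX3 this was a smaller rise, and for MAGEB2 a value below zero in L428-PAX5 against one above zero in L428. That is 4 of 9 members lower and 0 higher, beside 10.6% of all genes lower and 5.64% higher. Of the 9 Hodgkin markers, 5 were lower in the same interaction (CCL22 -2.61, CCL17 -1.81, TNFRSF8 -1.38, MSC -1.36 and CD70 -1.21), as were the B-cell marker CR2 (-1.87) and the epithelial marker CDH1 (-0.93). EPCAM, also epithelial, was higher (0.67 ± 0.22, limma adjusted p = 0.0493). The other measured B-cell markers (between 0.03 and 0.39), KRT8 (0.09) and KRT18 (0.66) did not pass. The part of these markers in the members' difference was not tested. PRAME had -0.97 ± 0.36 (adjusted p = 0.077, and adjusted p = 0.0246 with the block). It passed without replicate 3 of L428-PAX5+M (adjusted p = 0.0412) or of L428-PAX5+MAT (adjusted p = 0.0213). BRDT (0.31 ± 0.27), MAGEA4 (-0.59 ± 0.37), MAGEC1 (-0.20 ± 0.27) and MAGEC2 (-0.02 ± 0.38) did not pass. Of the shared SSX probe sets, 2 had a smaller change in L428-PAX5 (-1.04 ± 0.21 each, adjusted p = 0.00534 and 0.00526) and 2 did not pass (-0.54 ± 0.23 and -0.52 ± 0.23), in the fit over all probe sets, which called 5.49% lower. In that fit, the interaction did not pass for the probe sets of SSX5 (-0.95 ± 0.36), SSX7 (-0.09 ± 0.38), SSX8P (-0.18 ± 0.29) or SSX6P (0.78 ± 0.39), and SSX6P was higher in L428-PAX5+MAT than in L428+MAT (0.96 ± 0.27, adjusted p = 0.0171).

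**Figure D3:**
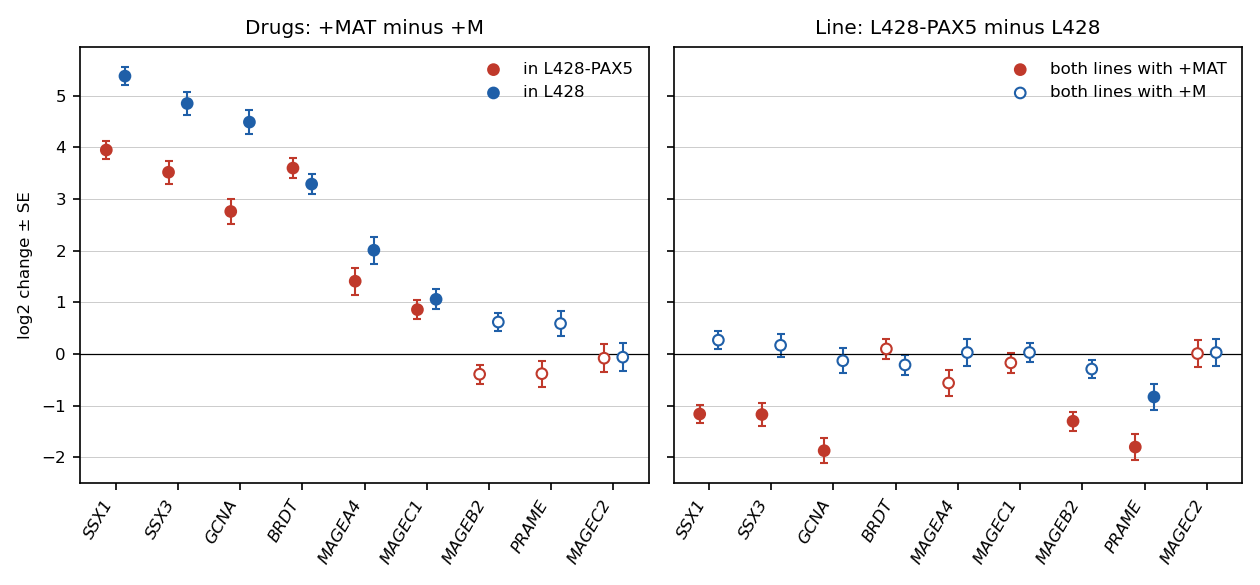
Log2 changes with their SE (vertical axes) of the 9 members, n = 3 arrays per group; the left panel gives +MAT minus +M within each line, the right panel L428-PAX5 minus L428 with (+MAT) and without (+M) the drugs. Filled points passed at an adjusted p below 0.05: 6 members in each line on the left, and 5 with the drugs and 1 without on the right.

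The 2 lines were also set against each other under the same treatment. These comparisons share arrays with the ones above and are no independent evidence of them. With mifepristone alone, only PRAME passed, with a change of -0.83 ± 0.25 in L428-PAX5+M relative to L428+M (1.78-fold lower, limma adjusted p = 0.03), with no overlap between the arrays. The call was lost without replicate 1 or 2 of L428+M (adjusted p = 0.11 and 0.0724) or without replicate 2 or 3 of L428-PAX5+M (adjusted p = 0.0564 and 0.147). The 8 other members ranged between -0.29 for MAGEB2 and 0.27 for SSX1. So 1 of 9 was lower and 0 higher, against 6.55% of all genes lower and 9.72% higher. PAX5 itself was 5.23 ± 0.30 higher in the same comparison.

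With the drugs, 5 of 9 members were lower in L428-PAX5+MAT than in L428+MAT, beside 17.7% of all genes, and 0 were higher, beside 14.3%. GCNA was lower by 1.87 ± 0.24 (-1.87, 3.65-fold, limma adjusted p = 6.95e-06), PRAME by 1.80 ± 0.25 (-1.80, 3.48-fold, adjusted p = 2.34e-05), MAGEB2 by 1.30 ± 0.18 (-1.30, 2.47-fold), SSX3 by 1.17 ± 0.22 (-1.17) and SSX1 by 1.16 ± 0.18 (-1.16). In these 5, every L428-PAX5+MAT array lay below every L428+MAT array. MAGEA4 (-0.56 ± 0.26), MAGEC1 (-0.17 ± 0.19), BRDT (0.10 ± 0.19) and MAGEC2 (0.01 ± 0.27) did not pass, and MAGEA4 did without replicate 3 of L428+MAT (-0.78, adjusted p = 0.0404) and had -0.19, not passing, without replicate 1 of that group. The Hodgkin markers were lower too, in 8 of 9 genes, with a mean level per array of 9.19 to 9.47 in L428-PAX5+MAT and 10.63 to 10.98 in L428+MAT. Their part in the members' difference was not tested. In bulk RNA, fewer cells that make a transcript and less transcript per cell cannot be told apart.

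The Burkitt lines were set against L428+M, a comparison in which cell line and mifepristone cannot be told apart. MAGEB2 and PRAME were lower in both. MAGEB2 had 4.75, 4.59 and 5.09 in Raji and 4.83, 4.39 and 4.81 in Namalwa, against 10.06, 9.76 and 9.93 in L428+M. It was lower by 5.11 ± 0.18 in Raji (-5.11, 34.5-fold, limma adjusted p = 3.58e-14) and by 5.24 ± 0.18 in Namalwa (-5.24, 37.7-fold, adjusted p = 2.44e-14). PRAME had 5.56, 5.43 and 5.13 in Raji and 5.66, 5.68 and 5.28 in Namalwa, against 9.48, 9.24 and 9.07 in L428+M. It was lower by 3.89 ± 0.25 in Raji (-3.89, 14.8-fold, adjusted p = 3.13e-10) and by 3.72 ± 0.25 in Namalwa (-3.72, 13.2-fold, adjusted p = 5.88e-10). Over all groups, the 2 genes stayed at or below 5.68 on the Burkitt arrays and lay between 7.41 and 10.74 on the arrays of L428 and L428-PAX5.

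In Raji, 2 of 9 members were higher and 2 lower than in L428+M, beside 15.7% and 15.6% of all genes. SSX1 read 5.45, 5.59 and 5.53 in Raji, which was 0.67 ± 0.18 above L428+M (limma adjusted p = 0.00571). GCNA read 6.33, 6.16 and 6.25, which was 0.81 ± 0.24 above (adjusted p = 0.0114, and adjusted p = 0.0561 without replicate 1 of L428+M). SSX1 and GCNA lay below 6.52, the lowest array median, on all Raji and L428+M arrays, and far below their levels in L428+MAT. In Namalwa, 0 were higher and 2 lower, beside 18.4% and 15.5%. GCNA there had 5.63, 5.56 and 5.24 and SSX1 4.71, 5.15 and 4.86, close to L428+M (changes of 0.04 ± 0.24 and 0.05 ± 0.18). SSX3 (5.31, 4.91 and 5.72 in Raji), MAGEA4, MAGEC1, MAGEC2 and BRDT did not pass in either Burkitt line, with changes between -0.06 and 0.26.

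By group, SSX1, SSX3, GCNA, MAGEA4 and MAGEC1 had their highest mean in L428+MAT and the next in L428-PAX5+MAT. These 2 groups did not overlap for SSX1, SSX3 and GCNA, and overlapped for MAGEA4 and MAGEC1. BRDT had its highest mean in L428-PAX5+MAT (8.13 ± 0.34 SD), overlapping L428+MAT (8.03 ± 0.24 SD). The means of MAGEB2 and PRAME were ordered L428+MAT, L428+M, L428-PAX5+M and L428-PAX5+MAT, with the Burkitt lines lowest. MAGEB2 overlapped between L428+M and L428-PAX5+M, and PRAME between L428-PAX5+M and L428-PAX5+MAT. MAGEC2 differed by 0.12 between its highest and lowest group mean, and all its neighbouring groups overlapped.

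Likeness to other genes was described by Pearson's r over the 18 arrays, which share their groups, among 7426 genes whose group means range over at least 1 on the log2 scale. MAGEC2 fell short of that range. SSX1 was most like SSX3 (r = 0.987), which is listed with it on 4 other probe sets, then TKTL1 (0.982) and LRRC49 (0.979). For SSX3 these were SSX1, POPDC1 (0.982) and TKTL1 (0.981). GCNA came closest to DAZL (0.981), a germ-cell RNA-binding protein, then LRRC49 (0.972) and SSX1 (0.97). BRDT followed TKTL1 (0.984), ATP1B2 (0.982) and ROBO1 (0.982). MAGEA4 was like IL13RA2 (0.957), DAZL (0.953) and SEPTIN10 (0.943), and MAGEC1 like POPDC1 (0.943), SSX3 (0.912) and CIART (0.911). MAGEB2 followed other genes, CD109 (0.993), TFAP2A (0.993) and CCND2 (0.992), and PRAME followed ANK3 (0.985), RDH10 (0.984) and SLC25A24 (0.982).

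Other cancer-testis genes were counted for comparison, in lists also chosen with earlier results of these data known. Of 46 other measured X-linked ones, 16 rose and none fell in L428-PAX5, and 12 rose and none fell in L428. Of all genes tested, 14.2% rose and 19.4% fell in L428-PAX5, and 4.21% rose and 0.635% fell in L428, which is also the background of the lists that follow. Their median change was 0.26 in L428-PAX5 and 0.22 in L428. TKTL1, a transketolase-like enzyme, rose by 4.84 ± 0.22 in L428-PAX5 and 5.06 ± 0.22 in L428 (limma adjusted p at most 7.24e-11), SAGE1 by 1.83 ± 0.24 and 2.81 ± 0.24, TEX11, a meiotic protein, by 1.37 ± 0.25 and 3.30 ± 0.25, and IL13RA2, a decoy receptor of interleukin 13, by 1.50 ± 0.23 and 3.06 ± 0.23. Of 55 autosomal ones, 21 rose and 1 fell in L428-PAX5 (median change 0.31), and 13 rose and none fell in L428 (median 0.21). MAEL, of the piRNA pathway, rose by 3.20 ± 0.24 in L428-PAX5 and 3.71 ± 0.24 in L428, DAZL by 2.76 ± 0.28 and 4.38 ± 0.28, HORMAD1, of the meiotic chromosome axis, by 2.08 ± 0.35 and 4.59 ± 0.35, CABYR, a sperm calcium-binding protein, by 1.68 ± 0.22 and 1.37 ± 0.22, and TSGA10, of the sperm tail, by 1.90 ± 0.15 and 0.74 ± 0.15 (limma adjusted p at most 0.0057). TSSK6, a testis kinase, fell in L428-PAX5 (-0.61 ± 0.23, adjusted p = 0.0473) and had -0.27 ± 0.23 in L428. The interaction passed in 3 of the 46 X-linked genes, all lower, and in 7 of the 55 autosomal ones, 5 higher and 2 lower. With 10.6% of all genes lower and 5.64% higher, these counts are not a result about the lists. Of the genes named above, TEX11 (-1.93 ± 0.35), IL13RA2 (-1.56 ± 0.33), HORMAD1 (-2.51 ± 0.50) and DAZL (-1.62 ± 0.40) changed less in L428-PAX5, and TSGA10 (1.17) changed more.

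Relatives and partners of the members were counted in the same way, beside 14.2% of all genes higher and 19.4% lower in L428-PAX5 and 4.21% and 0.635% in L428. With so few genes in each list, these counts are descriptions. In the PRAME family, 3 of 6 measured genes rose in L428-PAX5, PRAMEF20 (1.24 ± 0.21), PRAMEF2 (0.84 ± 0.18) and PRAMEF12 (0.50 ± 0.15), and 2 rose in L428, PRAMEF2 and PRAMEF20 (0.73 each). None fell. Of 9 type II MAGE genes, which are not restricted to germ cells, MAGEE1 rose (0.50 ± 0.14) and MAGED2 fell (-0.92 ± 0.18) in L428-PAX5, and 0 of 9 passed in L428 by limma, where 3 had an unadjusted p below 0.05. Of 11 partners of the member proteins, SPRTN, a DNA-protein crosslink protease, rose by 0.64 ± 0.15 in L428-PAX5 and 0.55 ± 0.15 in L428. BRD9 (1.12 ± 0.20) and SS18L1 (0.55 ± 0.17) rose in L428-PAX5, while the ubiquitin ligase components RBX1 (-1.30 ± 0.30), CUL2 (-0.84 ± 0.22) and ELOB (-0.77 ± 0.21) and the ligase TRIM27 (-0.90 ± 0.17) fell there. None of these 6 passed in L428, where BRD9 had 0.60 ± 0.20. The interaction passed for TRIM27 (-1.03 ± 0.24, limma adjusted p = 0.00642), and for the other 5 it did not (adjusted p between 0.0898 and 0.258).

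Genes of germline gene silencing, 30 of them measured, gave 3 higher and 12 lower in L428-PAX5, beside 14.2% and 19.4% of all genes. In L428, 0 passed by limma and 6 had an unadjusted p below 0.05, beside 4.21% of all genes higher and 0.635% lower. PCGF6, a Polycomb subunit, fell by 1.39 ± 0.24 (-1.39), the methyl-CG reader MBD2 by 1.09 ± 0.21 (-1.09), the methylcytosine oxidase TET2 by 0.92 ± 0.20 (-0.92) and HDAC8 by 0.88 ± 0.19 (-0.88). DNMT3B (0.94 ± 0.21), TET1 (0.78 ± 0.21) and MBD1 (0.60 ± 0.19) rose. Some cell type markers passed with the drugs in each line, fewer of them in L428. Of 9 Hodgkin markers, 6 fell in L428-PAX5, among them CCL17, MSC, TNFRSF8 and IRF4, and 1 rose in L428, CCL22, with a mean of 9.21 in L428+MAT and 6.51 in L428+M. Of 7 B-cell markers, 0 passed limma in L428-PAX5 and CR2 rose in L428, with a mean of 6.80 in L428+MAT and 4.78 in L428+M. Of 4 epithelial markers, 3 rose in L428-PAX5 and 2 in L428, with a mean level per array of 7.41 to 7.56 in L428-PAX5+MAT and 6.42 to 6.72 in L428-PAX5+M, and of 7.37 to 7.42 in L428+MAT and 6.50 to 6.67 in L428+M. Of 5 myeloid and 4 fibroblast markers, 2 each rose in L428-PAX5 and none in L428. Their part in the members' rise was not tested.

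**Figure D4:**
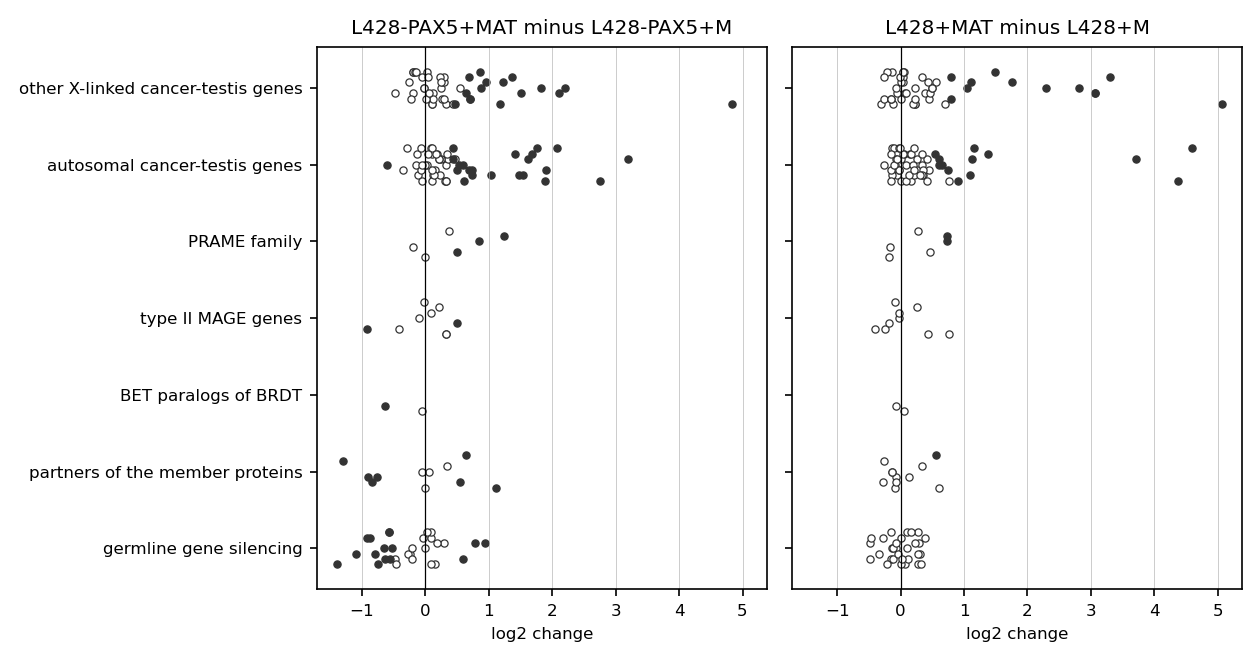
Log2 change of each measured gene of the 7 gene lists (horizontal axis), with 5-aza-dC and TSA in L428-PAX5 (left) and L428 (right); filled points passed at an adjusted p below 0.05, and vertical offsets within a list have no meaning. The largest rises lay in the 2 cancer-testis lists, up to 4.84 in L428-PAX5 and 5.06 in L428, while the silencing genes ran as low as -1.39 in L428-PAX5.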

How the data were processed

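Affymetrix arrays of 18 samples were analysed from log2 expression values per probe set that the authors deposited. RMA and Partek are the tools named, per the submitters' processing notes; versions, order and array build are not given in the sources used here. Of 33297 probe sets, 19460 carry 1 gene symbol, 1754 several and 12083 are not listed. For 769 genes with more than 1, the brightest on average was kept, leaving 18417 genes.

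Changes were fitted with limma 3.58.1 in R 4.3.3 (lmFit, eBayes, a mean for each group from all 18 arrays, degrees of freedom 12 residual and 6.08 prior, two-sided, Benjamini-Hochberg adjustment within a comparison). Python 3.11.15 with pandas 2.3.3, numpy 2.4.6, biopython 1.88 and matplotlib 3.10.9 made the summaries.

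Equal replicate numbers deviated together in the 18 pairs of the L428 groups (r 0.273 to 0.655). The main fit did not use this pairing, and all calls are unpaired unless the block is named. An alternative fit held the replicate number as a block. For Raji and Namalwa only 2 of 3 pairs each with L428+M exceeded an r of 0.1. The arrays numbered 3 deviated together across all 6 groups, with r between 0.353 and 0.57. The source of this was not tested. Where the block changed no call, its value is not given.

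The members and the lists (other X-linked and autosomal cancer-testis genes, PRAME family, type II MAGE genes, BET paralogs of BRDT, partners of the member proteins, germline gene silencing, cell type markers) were chosen with earlier results of these data known. Named are all members, up to 4 rising and 4 falling genes per list with the largest passing change in a drug comparison, any gene of lists of 12 or fewer, and the 3 genes most like each member. Alternatives covered the block, the samples and trend in the fit, scaling, array weights, dim genes, averaged probe sets and each array left out. With 3 arrays per group, their number limits the precision.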

Additional observations from a re-analysis of the deposited data

Results flagged for a closer look

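In 4 members the drug change differed between L428-PAX5 and L428 by a test of the difference itself, the limma interaction. The change in L428-PAX5 minus that in L428 was -1.43 for SSX1, -1.34 for SSX3, -1.01 for MAGEB2 and -1.73 for GCNA on the log2 scale. For SSX1, SSX3 and GCNA both lines rose, and for MAGEB2 the change was negative in L428-PAX5 and positive in L428, neither passing alone. No cause was tested.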

How the results depend on the processing

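Results were recomputed under 10 other settings and with each of the 18 arrays left out in turn. All probe sets in the fit and leaving out the arrays numbered 3 were chosen after seeing the data. Of 28 passing member changes, 26 passed in every setting that tested them. PRAME in L428-PAX5+M against L428+M and GCNA in Raji against L428+M lost the call, and 8 changes that did not pass did so in at least 1 setting. Signs changed in 59 of 1041 recomputed changes, none passing, the largest of size 0.36. The filter on dim genes left MAGEA4, MAGEC1 and MAGEC2 untested.

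The number of genes passing in L428+MAT against L428+M was 892, and 1592 with the replicate block, 593 with only these groups and 2551 with array weights. The interaction had 2990, and 4730 with the replicate block and 5965 with array weights. With array weights, L428-PAX5+MAT against L428-PAX5+M gave 9532 in place of 6204 and L428-PAX5+MAT against L428+MAT 11176 in place of 5898, with 2 members higher (BRDT and MAGEC2) in place of 0. In the latter, MAGEA4 (-0.41, limma adjusted p = 0.00992) and MAGEC1 (-0.34, adjusted p = 0.00372) also newly passed, as lower. The estimation of these weights stopped before convergence. For the other results the cause was not tested.

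Members lower in L428-PAX5+MAT against L428-PAX5+M numbered 0, and 1 with the replicate block (MAGEB2) or without the arrays numbered 3 (PRAME, -0.80, adjusted p = 0.0233), and 0 to 1 with an array left out. In L428-PAX5+M against L428+M, 1 member was lower, and 0 without the arrays numbered 3 and 0 to 1 with an array left out. PRAME there also lost its call with all probe sets in the fit (adjusted p = 0.0662). Members higher in Raji numbered 2, and 1 to 2 with an array left out. In the L428 comparisons the replicate block changed the calls of MAGEB2 (both drug comparisons) and PRAME (interaction) and no other member's call. Of interaction calls, 34.7% were higher, and 48.7% after quantile normalization. Of calls in L428-PAX5+MAT against L428+MAT, 44.8% were higher, and 51.4% after quantile normalization, with 5 members lower and 0 higher in both. Values near the lower end, as for MAGEC2, limit what can be seen at these levels.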
